A study of Drosophila melanogaster with 21 samples.

Results

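The genes described here encode the nuclear subunits of oxidative phosphorylation (OXPHOS), the chain of 5 inner-membrane enzyme complexes by which mitochondria turn the oxidation of nutrients into ATP. Members were all genes whose symbol starts with ND-, COX, ATPsyn, UQCR or Sdh, together with Cyt-c1 and RFeSP. The deposited tables carry older gene names, of which only 9 follow this rule, so gene identifiers were first matched to current symbols, which gave 90 members among the 13955 genes of the tissue tables. Of these, 65 are subunits (34 of complex I, 4 of complex II, 8 of complex III, 8 of complex IV and 11 of complex V), 24 are paralogue-type genes whose symbol ends in L, L1 or L2, and 1, Sdhaf3, is an assembly factor. In the cell-line table, 79 members had a transcript. The 11 without one were ND-MNLL and 10 paralogues.

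The study removed the transcription factor Saft (CG11247) and measured RNA in 21 libraries. Schneider S2 cells, a line from fly embryos, expressed OsTir1 and carried a FLAG-AID degron on both copies of Saft, and all S2 libraries came from 1 clone, 9C. Auxin triggers degradation of such a tagged protein: 2 libraries each were made from cells given solvent alone and from cells at 24 h and at 48 h of 500 µM auxin. Auxin on untagged cells was not analysed here. Flies carried a 1 bp deletion in exon 1 (mutant 1) or a 2 bp deletion in exon 2 (mutant 2), both made in an isogenised white strain that served as wild type. The labels list both mutant stocks over the TM3, Sb balancer and do not say whether the dissected females were homozygous. Every genotype had 2 brain libraries, made of 40 brains apiece, and 3 ovary libraries, made of 5 pairs of ovaries apiece, all from mated females aged 3 to 4 days. The design text calls the replicates biological without saying whether cultures or dissections were separate, and the p-values reflect only how these libraries vary, which may be technical variation.

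Complexes I and II pass electrons from NADH and succinate to ubiquinone. Complex III hands them on to cytochrome c, and complex IV to oxygen. Complexes I, III and IV pump protons, and complex V, the ATP synthase, uses the returning flow to make ATP. Complexes I, III, IV and V also contain a few subunits encoded by mitochondrial DNA, whereas complex II is wholly nuclear. The fly ovary loads the egg with mitochondria, and neurons depend heavily on OXPHOS. Several fly OXPHOS genes have duplicates that are expressed mainly in testis.

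An S2 library held between 6.42 and 9.15 M counts, a brain library between 39.0 and 45.6 M, and an ovary library between 14.1 and 21.5 M. Members took 1.23% to 1.49%, 0.761% to 0.869% and 0.710% to 0.936% of them, respectively. Levels are counts per M (CPM) after TMM scaling within each system, and a gene was called when edgeR's quasi-likelihood test, fitted over all genes of a system, gave a Benjamini-Hochberg adjusted p under 0.05. CG11247 RNA was lower in mutant 1 ovary (log2 change -1.06 ± 0.06 SE) and brain (-0.41 ± 0.06), and higher in mutant 2 ovary (0.21 ± 0.06) and brain (0.28 ± 0.05), with edgeR adjusted p between 1.32e-07 and 0.0349. A frame shift need not lower RNA and the degron acts on protein, so these values do not check the loss of the protein. Summed neuronal and germline markers went with the tissue labels, each scaled within its tissue. Neuronal markers held 8607 to 9373 CPM in brain and 6.27 to 10.1 CPM in ovary. Germline markers held 3.33 to 6.16 CPM in brain and 2634 to 2912 CPM in ovary. Not all lists did so: the yolk protein gene Yp1, of the follicle-cell list, held 4114 to 7225 CPM in brain libraries. In ovary, mutant 1 replicate 1, mutant 2 replicate 3 and wild-type replicate 2 lay apart from the other libraries on the same side of the second principal component, and their deviations from the group means correlated at 0.127 to 0.339.

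In ovary, the summed RNA of the OXPHOS subunits was lower in both Saft mutants than in wild type. The summed level of all 65 subunits was 8708, 9739 and 8331 CPM in wild-type replicates 1 to 3, 7948, 7299 and 6988 CPM in mutant 1, and 7853, 7258 and 7133 CPM in mutant 2. All 6 mutant libraries lay below all 3 wild-type libraries, and wild-type replicate 2 was the highest of the 9. The group means were 8926 ± 729 (SD, n = 3) for wild type, 7412 ± 490 for mutant 1 and 7415 ± 385 for mutant 2. In these bulk samples fewer cells of a type and less RNA per cell cannot be told apart. Of 67 members tested in ovary, edgeR called 17 lower and 0 higher in mutant 1, against a background of 11.2% of all genes called lower and 12.2% called higher. In mutant 2, 19 were lower and 0 higher, against 7.35% lower and 8.77% higher. In either direction, 23.5% and 16.1% of all genes were called. All called members were subunits, of which 63 were tested. ND-B8 and ND-MNLL did not reach the count filter. The median change of these 63 subunits was -0.16 in mutant 1 and -0.21 in mutant 2 on the log2 scale, beside 0.01 and 0.00 for all genes tested. Both comparisons use the same 3 wild-type libraries, so their values stand side by side and are not independent. Between the mutants edgeR and DESeq2 each called 0 members (background 0.012%), and 0 had an unadjusted p under 0.05.

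**Figure D1:**
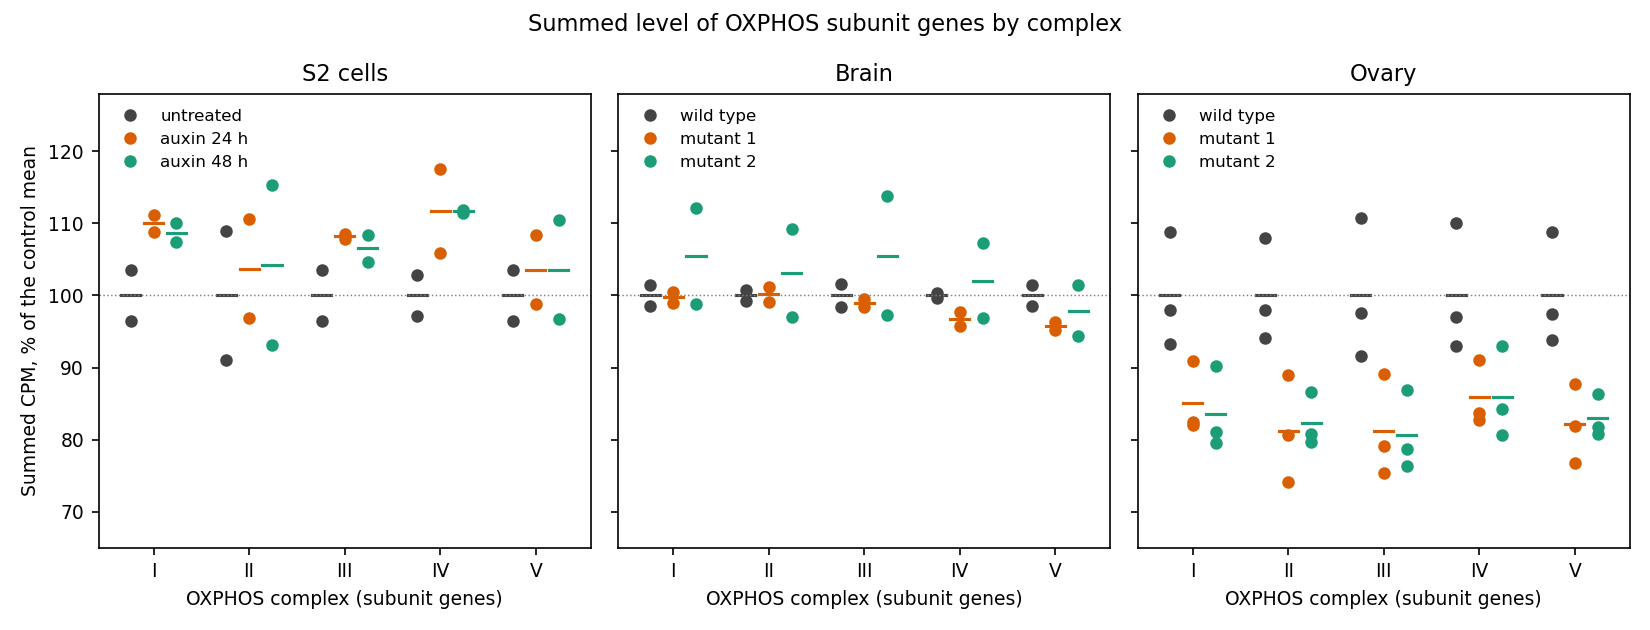
Summed CPM of the subunit genes of each complex (x axis) as a percentage of the control mean (y axis, which does not start at 0), in a panel for each of the 3 systems, with 1 point per library and a line at each group mean. All 6 mutant ovary libraries lie below all wild-type ovary libraries in each of the 5 complexes, by the least in complex IV, where the highest mutant library has 874 CPM and the lowest wild-type library 875 CPM.

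Complex V, the ATP synthase, held the largest summed RNA of the 5 complexes in ovary and fell in 6 of its 11 subunit genes in each mutant. ATPsyngamma (FBgn0020235, arm 3R), the central shaft that turns inside the catalytic head, measured 287, 327 and 275 CPM in wild type, 244, 230 and 211 in mutant 1, and 243, 226 and 233 in mutant 2. No mutant library reached the lowest wild-type library. The log2 change was -0.38 ± 0.07 in mutant 1 (edgeR adjusted p = 0.00396) and -0.34 ± 0.07 in mutant 2 (0.00844). ATPsynbeta (FBgn0010217, chromosome 4), the catalytic subunit, measured 1051, 1099 and 1022 CPM in wild type, 920, 904 and 900 in mutant 1, and 958, 921 and 926 in mutant 2. Its fall was smaller, -0.22 ± 0.05 and -0.18 ± 0.05 (adjusted p = 0.0113 and 0.0377, edgeR), with no overlap between mutants and wild type. ATPsynC (FBgn0039830, arm 3R), which forms the rotating ring in the membrane, was the most abundant member per length in wild-type ovary at 855 CPM per kb of exon. It fell by 0.26 ± 0.07 in mutant 1 and by 0.25 ± 0.07 in mutant 2 (adjusted p = 0.0254 and 0.0407, edgeR). The peripheral stalk, which holds the catalytic head still, contributed ATPsynD (-0.39 ± 0.09 and -0.36 ± 0.09) and ATPsynCF6 (-0.40 ± 0.10 and -0.38 ± 0.10), all 4 values called. ATPsynF, a membrane subunit, fell by 0.39 ± 0.11 and 0.38 ± 0.11. The largest change of the complex, in the stalk gene ATPsynB, was not called (-0.55 ± 0.17, adjusted p = 0.0529, and -0.58 ± 0.17, 0.0555, edgeR), although its 6 mutant libraries (205 to 308 CPM) lay below its 3 wild-type libraries (314 to 455 CPM). Across the complex, 8 of 11 subunits had all mutant libraries below all wild-type libraries, and ATPsynE, ATPsynG and ATPsynO did not. The background for such a separation was 14.7% of all genes tested, and over all members it held for 26 of 67.

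In complex III, which carries electrons from ubiquinol to cytochrome c, the called genes were Cyt-c1 and UQCR-C1 in each mutant. Cyt-c1 (FBgn0035600, arm 3L), the haem protein that reduces cytochrome c, measured 214, 232 and 200 CPM in wild type, 178, 164 and 161 in mutant 1, and 181, 160 and 168 in mutant 2. Every mutant library was below every wild-type library. It fell by 0.36 ± 0.07 in mutant 1 and by 0.34 ± 0.07 in mutant 2, with the smallest adjusted p of any member in both comparisons (0.00349 and 0.00552, edgeR). UQCR-C1, a core protein on the matrix side, fell by 0.26 ± 0.08 in each mutant. RFeSP, the Rieske iron-sulfur protein, had the largest change of any subunit in mutant 1 and was not called (-0.57 ± 0.20, adjusted p = 0.0721, and -0.55 ± 0.20, 0.0966, edgeR). Its wild-type libraries spread widely, at 226, 303 and 213 CPM, and the mutants measured 204, 169 and 125 CPM and 169, 173 and 163 CPM. UQCR-6.4 was the one complex III subunit with a positive value in both mutants (0.15 ± 0.13 and 0.02 ± 0.13), neither called.

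In complex II, succinate dehydrogenase, the flavoprotein SdhA fell while the other 3 subunits were not called. SdhA (FBgn0261439, arm 2R) measured 298, 338 and 288 CPM in wild type, 261, 237 and 202 in mutant 1, and 241, 232 and 239 in mutant 2. The groups did not overlap, and the log2 change was -0.40 ± 0.09 and -0.37 ± 0.09 (edgeR adjusted p = 0.0079 and 0.015). The membrane anchors SdhC and SdhD gave 0.02 ± 0.10 and -0.21 ± 0.07 in mutant 1 and -0.10 ± 0.10 and -0.23 ± 0.07 in mutant 2. SdhB, the iron-sulfur subunit, gave -0.14 ± 0.08 and -0.05 ± 0.08. Whether SdhA changed more than its partners was not tested.

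In complex IV, cytochrome c oxidase, the called genes were COX4, COX5A and COX5B in mutant 1, and COX4 and COX5B in mutant 2. COX4 (FBgn0032833, arm 2L) measured 214, 268 and 213 CPM in wild type, 200, 183 and 171 in mutant 1, and 187, 176 and 174 in mutant 2. Wild-type replicate 2 stood high, and the gap between the lowest wild-type and the highest mutant library was 213 to 200 CPM. Its log2 change was -0.33 ± 0.09 and -0.37 ± 0.09 (edgeR adjusted p = 0.0218 and 0.0183). COX5B fell by 0.35 ± 0.09 and 0.31 ± 0.09, and COX5A gave -0.27 ± 0.08 (adjusted p = 0.0383) and -0.22 ± 0.08 (0.1, edgeR). The small subunits COX6B, COX7A, COX7B, COX7C and COX8 gave -0.18 to -0.02 in mutant 1 and -0.18 to -0.03 in mutant 2, none called.

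Complex I, NADH dehydrogenase, is the largest complex and was the most mixed. Of 32 tested subunits, 5 fell in mutant 1, where 11.2% of all genes were called lower, and 8 fell in mutant 2, where 7.35% were. Values were positive for 8 and 5 of them. Several called genes belong to the arm that oxidises NADH. ND-75 (FBgn0017566, X chromosome), its largest iron-sulfur subunit, measured 311, 356 and 310 CPM in wild type, 269, 228 and 194 in mutant 1, and 260, 256 and 222 in mutant 2. The groups were separate, and the log2 change was -0.50 ± 0.11 and -0.41 ± 0.11 (edgeR adjusted p = 0.012 and 0.0368). ND-51 (FBgn0031771, arm 2L), which binds NADH, measured 224, 267 and 206 CPM in wild type, 192, 174 and 138 in mutant 1, and 168, 157 and 164 in mutant 2, a change of -0.47 ± 0.12 and -0.51 ± 0.12 (0.0273 and 0.0269, edgeR). ND-24, its neighbour in the NADH-binding module, gave -0.48 ± 0.16 and -0.54 ± 0.16 and was not called. The hydrophilic-arm subunits ND-30 and ND-39 fell by 0.30 ± 0.09 and 0.33 ± 0.09 in mutant 1 and by 0.29 ± 0.09 and 0.41 ± 0.09 in mutant 2. ND-ASHI, of the membrane arm, fell by 0.40 ± 0.09 and 0.30 ± 0.09. ND-42, ND-B22 and the acyl carrier protein ND-ACP were called in mutant 2 alone (-0.22 ± 0.06, -0.35 ± 0.08 and -0.22 ± 0.07). In mutant 1 the same genes gave -0.15 ± 0.06, -0.23 ± 0.08 and -0.19 ± 0.07, and no member differed between the mutants.

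At the other end of complex I, ND-MLRQ (FBgn0052230, arm 3L) was the single member for which all mutant libraries lay above all wild-type libraries (background 15.6%). It measured 37, 29.4 and 35.2 CPM in wild type, 40.1, 39.1 and 55.8 in mutant 1, and 50.5, 39.5 and 37.8 in mutant 2. The change was not called (0.41 ± 0.17, adjusted p = 0.103, and 0.33 ± 0.17, 0.2, edgeR). Its human orthologue NDUFA4 has been assigned to complex IV. ND-AGGG gave 0.36 ± 0.25 and 0.32 ± 0.25, neither called, with overlapping libraries. The quinone-site subunit ND-49 was near 0 change at 0.01 ± 0.06 and -0.04 ± 0.06.

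**Figure D2:**
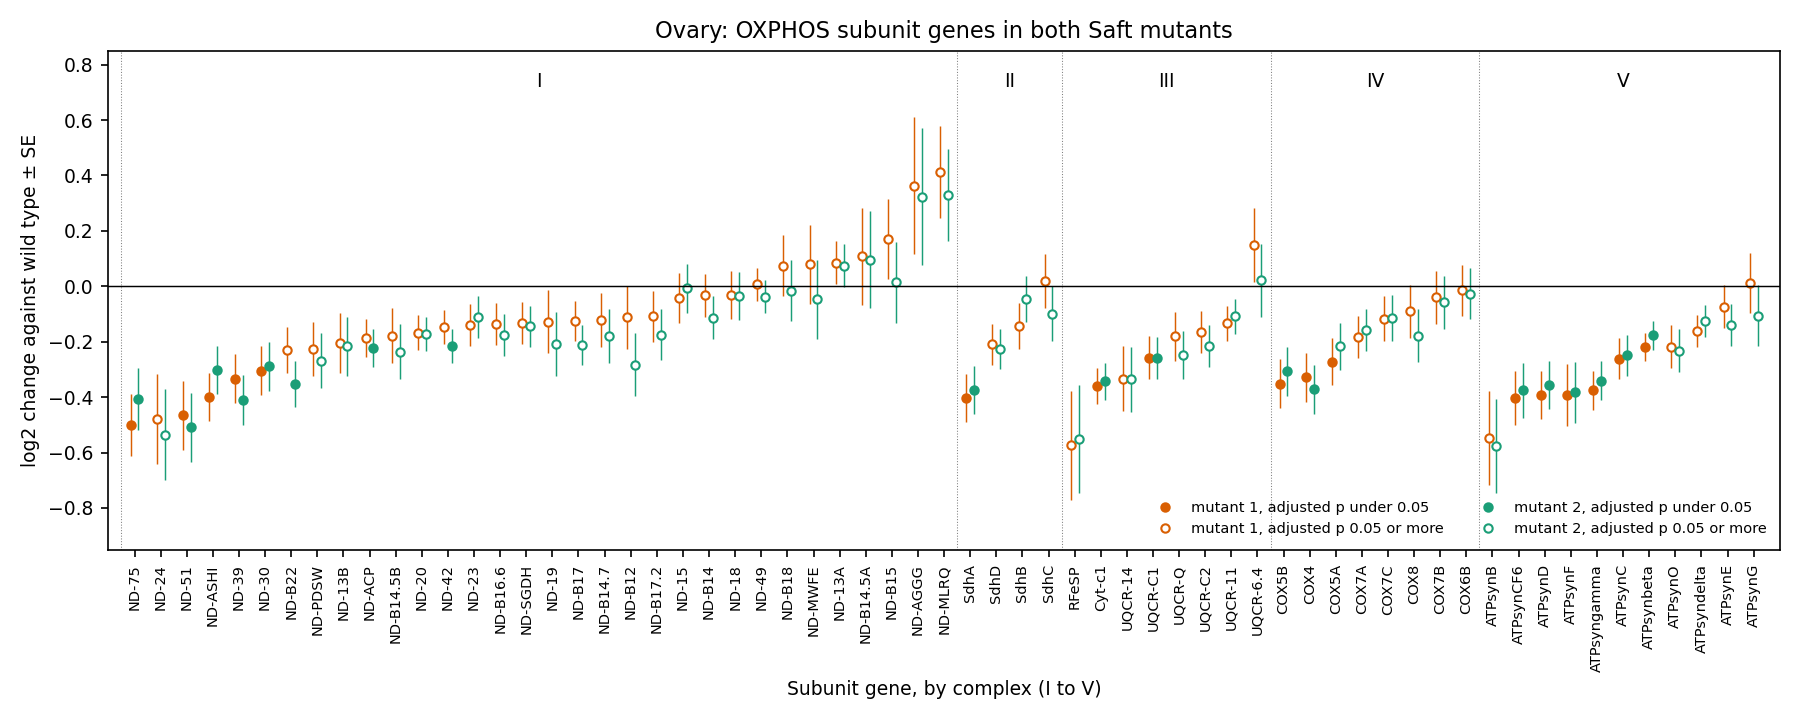
Log2 change against wild type (y axis, ± SE) of the 63 tested subunit genes in ovary (x axis, by complex and, within it, by the mutant 1 value), for mutant 1 and mutant 2. Filled points have an adjusted p under 0.05, and they all lie below 0, between -0.51 and -0.18. Both mutants share the same wild-type libraries.

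Among the 36 calls of both comparisons the log2 change ran from -0.51 to -0.18. Of 5 nuclear subunits that the naming rule misses, 2 fell in each mutant: blw (ATP synthase alpha) at -0.36 ± 0.08 and -0.37 ± 0.08 and levy (COX6A) at -0.51 ± 0.15 and -0.57 ± 0.15 fell, and sun, cype and ox were not called. The carrier of electrons between complexes III and IV, Cyt-c-p, fell in mutant 1 (-0.38 ± 0.10, adjusted p = 0.0202) and was not called in mutant 2 (-0.22 ± 0.10, 0.139, edgeR). Of 12 tested genes of the tricarboxylic acid cycle and pyruvate dehydrogenase, which feed the chain, 7 fell in each mutant and 0 rose, among them citrate synthase kdn (-0.46 ± 0.07 and -0.49 ± 0.07) and aconitase mAcon1 (-0.35 ± 0.06 and -0.29 ± 0.06). The ADP/ATP carrier sesB, which exports the ATP made by complex V, fell by 0.32 ± 0.09 and 0.34 ± 0.09, and the phosphate carrier Mpcp2 by 0.36 ± 0.11 and 0.38 ± 0.11. Of 6 carriers, 3 fell in mutant 1 and 2 in mutant 2. For each of these lists the background was 11.2% of all genes called lower in mutant 1 and 7.35% in mutant 2.

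Of the 13 subunits encoded by mitochondrial DNA, edgeR called 0 in either mutant, and their median change was 0.17 in mutant 1 and 0.30 in mutant 2. Their summed level was 6177 to 7694 CPM in wild type, 6405 to 10120 CPM in mutant 1 and 8466 to 9167 CPM in mutant 2. At an unadjusted p under 0.05, 1 was higher and 1 lower in mutant 1, and 3 were higher and 0 lower in mutant 2. These counts stand without the share of all genes at that cut and are not read as a response. Of 7 assembly factors outside the naming rule, the complex II assembly factor Sirup rose in both comparisons (0.46 ± 0.11 and 0.46 ± 0.11, adjusted p = 0.0141 and 0.0189, edgeR), and the member Sdhaf3, with a role in the same complex, gave 0.38 ± 0.17 and 0.35 ± 0.17 and was not called. Among 9 tested regulators of mitochondrial genes in mutant 1, the estrogen-related receptor ERR rose (0.25 ± 0.06) and the mitochondrial RNA polymerase PolrMT fell (-0.21 ± 0.05). In mutant 2 none was called, with ERR at 0.19 ± 0.06 and PolrMT at -0.09 ± 0.05. Of 12 glycolysis genes, Ldh and Hex-A rose and Eno, Pfk and Pgk fell in mutant 1, whereas in mutant 2 Eno, Pgk and PyK fell and 0 rose. Of all genes, 12.2% were called higher and 11.2% lower in mutant 1, and 8.77% higher and 7.35% lower in mutant 2.

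Markers of other ovary cells moved in the same libraries. Of 10 follicle-cell genes (chorion, vitelline membrane and yolk protein genes), 7 fell in mutant 1 and 6 in mutant 2, beside 11.2% and 7.35% of all genes. Their summed level was 26144 to 31770 CPM in wild type, 17610 to 18385 CPM in mutant 1 and 15335 to 16755 CPM in mutant 2. Of 6 germline genes, 2 and 3 fell, beside the same shares of all genes, while their sum stayed at 2634 to 2853, 2815 to 2912 and 2799 to 2879 CPM. Muscle genes were called higher for 0 of 9 in mutant 1 and 4 of 9 in mutant 2, beside 12.2% and 8.77% of all genes, with sums of 516 to 604 CPM in wild type, 655 to 685 CPM in mutant 1 and 583 to 1043 CPM in mutant 2. Their part in the OXPHOS result was not tested. The longest subunit genes had more negative medians than the shortest: in mutant 1 the median was -0.09 for 11 subunits of up to 700 bp of exon and -0.40 for 3 subunits above 2500 bp, beside 0.07 and 0.02 for all genes of those lengths. In mutant 2 the corresponding medians were -0.16 and -0.37 for subunits and 0.05 and 0.02 for all genes. Among the 31 tested subunits that share no exon sequence with another annotated gene, 10 fell in mutant 1 and 12 in mutant 2, beside 11.2% and 7.35% of all genes, with medians of -0.18 and -0.22.

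How many members passed depended on single libraries. In mutant 1 the count went from 17 to 7 without wild-type replicate 2, to 8 without mutant 1 replicate 2 or replicate 3, and to 10 without wild-type replicate 1. The share of all genes called lower in these fits was 5.35%, 6.75%, 5.53% and 6.32%, so it went down as well. Leaving out the 3 libraries that lay apart gave 21 members and 9.84% of all genes. In mutant 2 the count went from 19 to 2 without mutant 2 replicate 2 (2.35% of all genes lower), to 4 without mutant 2 replicate 3 (3.06%) or wild-type replicate 2 (2.49%), and to 9 without mutant 1 replicate 2 (4.75%). It was 8 without wild-type replicate 1 (2.81%) and also without the 3 libraries that lay apart (2.59%). In all 14 alternatives run, Cyt-c1 and ATPsyngamma were called lower in both comparisons, and SdhA, ATPsynbeta, ATPsynD and ND-ASHI in mutant 1. The median change of the subunits stayed between -0.21 and -0.11 in mutant 1 and between -0.26 and -0.12 in mutant 2.

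In brain the same genes were not called in either mutant. The summed subunit level was 8084 and 7880 CPM in wild type, 7770 and 7848 CPM in mutant 1, and 7708 and 8583 CPM in mutant 2, so that replicate 2 of mutant 2 was the highest library and replicate 1 the lowest. Of 73 tested members, edgeR called 0 in mutant 1 (background 1.9% of all genes higher and 0.759% lower, 2.66% together) and 0 in mutant 2 (background 2.23% higher and 0.729% lower, 2.96% together). At an unadjusted p under 0.05 there were 1 higher and 1 lower member in mutant 1, and 7 higher and 2 lower in mutant 2. These counts stand without the share of all genes at that cut and are not read as a response. DESeq2 called 0 members in mutant 1 and 1, ATPsynG, higher in mutant 2. The median change of 64 tested subunits was -0.01 in mutant 1 and 0.06 in mutant 2, beside 0.00 for all genes in each. Between the mutants 60 of the 64 were positive, with a median of 0.09 and 0 called by edgeR or DESeq2 (background 0.0405%). The share of all genes with a positive value is not given here, so the 60 are not read as a response. The subunit median was 0.01 without mutant 2 replicate 2 and 0.17 without mutant 2 replicate 1. At an unadjusted p under 0.05 the count was 5, again without the share of all genes at that cut. Short genes were also higher among all genes in this comparison. In bins of exon length split at 700, 1000, 1500 and 2500 bp, all genes had medians of 0.06, 0.05, 0.02, 0.00 and -0.01. The subunits had 0.13, 0.10, 0.10, 0.07 and 0.02.

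The counts in mutant 2 brains depended on single libraries. Without mutant 2 replicate 1, edgeR called 11 members and 3.95% of all genes higher. Without mutant 2 replicate 2 it called 0 members higher and 1 lower (ND-MNLL, at 0 to 2.13 CPM), beside 2.8% and 1.11% of all genes. The subunit median was 0.15 without replicate 1 and -0.00 without replicate 2. Short genes were also higher overall in this comparison: all genes of up to 700 bp of exon had a median of 0.08, beside 0.09 for the 11 subunits of that length, and all genes above 2500 bp had -0.01, beside 0.01 for 3 subunits. In the bins between them, split at 1000 and 1500 bp, the subunit medians were 0.08, 0.05 and 0.06, above the 0.04, 0.01 and -0.00 of all genes.

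Cyt-c1 shows the contrast with ovary, at 182 and 174 CPM in wild-type brain, 176 and 179 in mutant 1, and 181 and 193 in mutant 2, with overlapping groups. ATPsyngamma measured 208 and 200, 194 and 200, and 199 and 224 CPM in the same order, again with overlap. ATPsynG, a membrane subunit of the ATP synthase, came nearest to a call, at 71.9 and 72.7 CPM in wild type, 81.3 and 77.9 in mutant 1, and 83.6 and 86.5 in mutant 2. All 4 mutant libraries were above both wild-type libraries, and the change was 0.14 ± 0.05 in mutant 1 (adjusted p = 0.397) and 0.23 ± 0.05 in mutant 2 (0.0553, edgeR). ND-MLRQ gave 0.02 ± 0.06 and 0.20 ± 0.05, neither called. Other subunits with large values in their complex were ND-B14.5A (0.02 ± 0.08 and 0.23 ± 0.08), SdhC (0.05 ± 0.07 and 0.18 ± 0.07), UQCR-C2 (0.07 ± 0.08 and 0.16 ± 0.08) and COX7C (-0.14 ± 0.07 and 0.06 ± 0.07), none called. Over all members, 5 of 73 had every mutant brain library above wild type (ATPsynG, ND-B15, ND-20, SdhC and UQCR-C2, background 12.6%) and 3 below it (ATPsynC, COX7AL2 and ND-51L2, background 10.9%). ATPsynC measured 1093 and 1036 CPM in wild type, 960 and 980 in mutant 1, and 935 and 1002 in mutant 2, and was not called (-0.13 ± 0.06 and -0.14 ± 0.06).

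Mitochondrial-DNA subunits in brain had a median change of 0.29 in mutant 1 and 0.24 in mutant 2, with 0 of 13 called and 1 higher at an unadjusted p under 0.05 in each. Their sum was 8638 to 9334 CPM in wild type, 10427 to 10865 CPM in mutant 1 and 9019 to 11754 CPM in mutant 2. In each list the background was 0.759% of all genes called lower in mutant 1 and 0.729% in mutant 2. Hemocyte markers fell in 5 of 6 genes in each mutant (sums of 807 to 896 CPM in wild type and 599 to 673 CPM in the mutants). Fat body markers fell in 3 and 2 of 5 genes (4532 to 4996 and 3330 to 3962 CPM). Most of this sum came from apolpp (2147 to 2576 CPM in wild type and 1723 to 2383 CPM in the mutants) and Obp44a (1760 to 1999 and 1005 to 1420 CPM). Whether Obp44a marks fat body in these brain samples was not tested. Of the follicle-cell list nearly the whole sum came from the yolk protein genes Yp1, Yp2 and Yp3, and no chorion or vitelline membrane gene was above 1.95 CPM in a brain library. None of the 5 tested genes of this list was called (3 lower in mutant 1 and 2 in mutant 2 at an unadjusted p under 0.05), with sums of 14082 to 18795 CPM in wild type, 10609 to 13087 CPM in mutant 1 and 11373 to 12212 CPM in mutant 2. Muscle markers, 0 of 9 called in either mutant, summed to 218 to 251 CPM in wild type, 197 to 287 CPM in mutant 1, and 169 and 295 CPM in replicates 1 and 2 of mutant 2. Photoreceptor markers, 0 of 5 called, summed to 406 to 917, 427 to 1057 and 526 to 584 CPM in the same order of groups. These sums differed between replicates of a group. The main rhodopsin, ninaE, measured 307 and 34.4 CPM in wild type, 412 and 83.7 CPM in mutant 1, and 40.3 and 39.4 CPM in mutant 2. Another marker, inaD, measured 14.8 and 7.05, 16.1 and 7.10, and 9.43 and 7.67 CPM in the same order. Replicate 1 was the higher one in each group for both genes. The part of these markers in the brain values was not tested. Counts at an unadjusted p in this paragraph stand without the share of all genes at that cut and are not read as a response.

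Whether the mutant effect differed between the tissues was tested directly, in 1 fit over all 15 tissue libraries, as the mean effect of both mutants in brain minus that in ovary. Of 72 members tested, edgeR called 2 higher and 0 lower (background 2.62% higher and 3.67% lower, 6.29% together): Cyt-c1 (0.36 ± 0.08, adjusted p = 0.0196) and ATPsyngamma (0.34 ± 0.09, adjusted p = 0.0455). The largest values among subunits with counts in every library were 0.51 ± 0.24 for RFeSP, 0.50 ± 0.20 for ATPsynB and 0.49 ± 0.15 for ND-51, none called. The subunit median was 0.16, beside -0.03 for all genes, and 55 of 64 subunits were positive. That count stands without the share of all genes with a positive value and is not read as a response. No member was called without wild-type brain replicate 1 or without replicate 2, and other single omissions gave 1 to 7 calls, so for most members a difference between tissues was not shown.

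**Figure D3:**
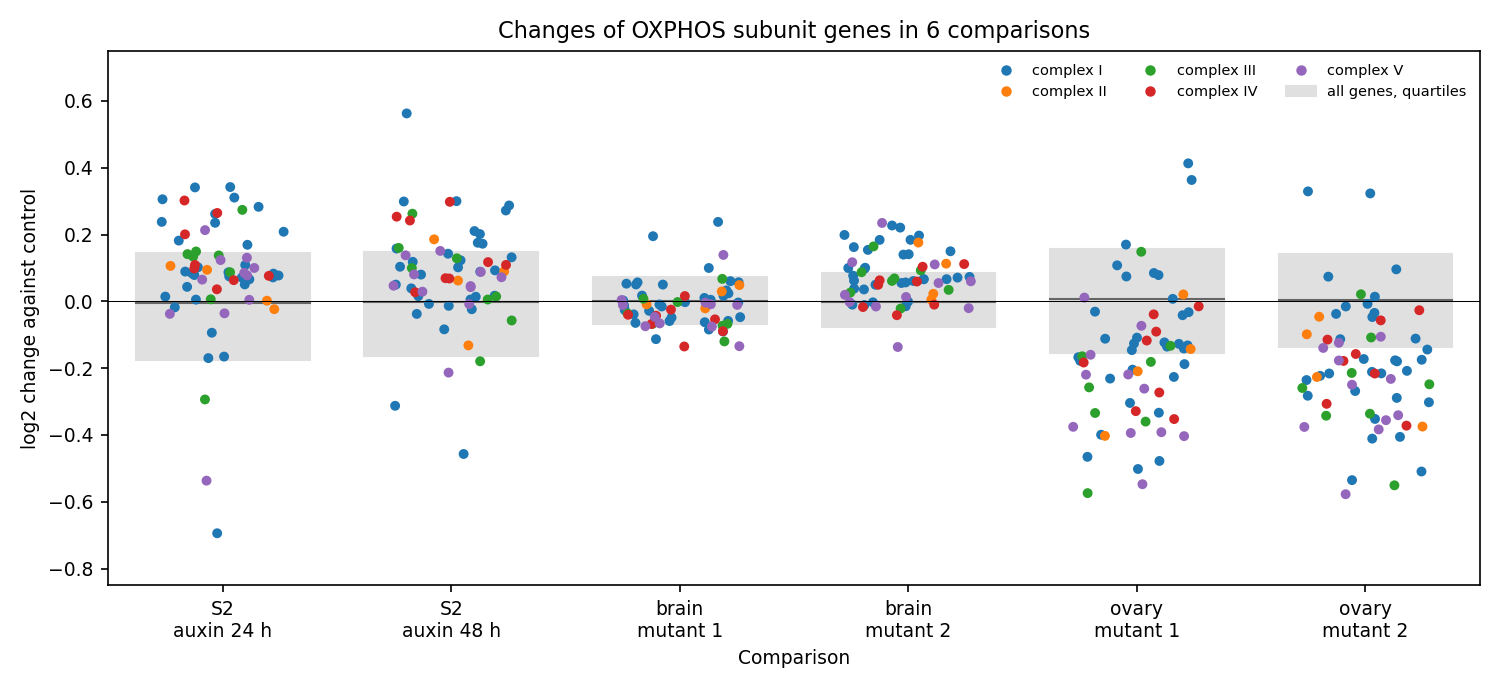
Log2 change (y axis) of the tested subunit genes in 6 comparisons (x axis), coloured by complex, with a grey box from the lower to the upper quartile of all genes tested and a line at their median. ND-MNLL in mutant 2 brain, at 1.42 with near 0 counts, is beyond the axis. The ovary points lie mostly below 0, with medians of -0.16 and -0.21, whereas brain medians are -0.01 and 0.06 and S2 medians 0.09 and 0.09.

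In S2 cells no member was called after auxin. The summed subunit level was 13201 and 12956 CPM in untreated cells, 13685 and 14595 CPM at 24 h, and 13837 and 14297 CPM at 48 h, so all 4 treated libraries lay above both untreated libraries. Of 65 tested members, edgeR called 0 at 24 h (background 0.0979%), 0 at 48 h (0.112%) and 0 between the times (0), and 0 members had an unadjusted p under 0.05 at either time. DESeq2 called 0 as well. Same-numbered replicates deviated together in these libraries, and with the replicate number as a block edgeR still called 0 members, while the background rose to 1.93% and 2.67%. In that blocked fit the members with an unadjusted p under 0.05 were 12 at 24 h (10 of them positive) and 9 at 48 h (all positive). The share of all genes at that cut is not given here, so these counts are not read as a response. The median change of 63 tested subunits was 0.09 at 24 h and 0.09 at 48 h, beside -0.01 and 0.00 for all genes. Values were positive for 53 and 51 subunits, given without the share of all genes with a positive value. Over the alternatives the subunit medians ran from 0.06 to 0.15 and from 0.06 to 0.14. The median SE of a member at 24 h was 0.176, and 0.112 with the block.

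All 4 treated libraries exceeded both untreated libraries for 14 of 65 members (background 6.53%) and were below them for 0 (background 4.96%). Among the 14 were COX4, at 580 and 536 CPM untreated, 648 and 694 at 24 h, and 716 and 657 at 48 h, and Cyt-c1, at 243 and 236, 282 and 298, and 291 and 285 CPM. Neither was called, with or without the replicate block. In the fit without the block, COX4 gave 0.26 ± 0.16 and 0.30 ± 0.16, and Cyt-c1 0.27 ± 0.15 and 0.26 ± 0.15. The accessory subunit ND-B14.5B gave 0.34 ± 0.15 and 0.29 ± 0.15 in that fit. By complex the summed change was 9.98% and 8.72% for complex I, 3.72% and 4.25% for complex II, 11.7% and 11.7% for complex IV, and 3.56% and 3.58% for complex V, at 24 h and 48 h. Complex III summed to a mean of 1712 CPM untreated, 1852 CPM at 24 h and 1824 CPM at 48 h. Treated libraries overlapped untreated ones for complexes II and V. Libraries of the same group were far apart for a few genes: ATPsynbeta measured 50.7 and 161 CPM in untreated cells, 54.1 and 92.1 at 24 h and 43 and 140 at 48 h, and ND-49 5.93 and 37.1, 6.55 and 20.2, and 7.31 and 24.1 CPM. In each of these groups replicate 2 was the higher one. These counts read the 3' end of transcripts, so their levels are not comparable between genes by length or with the tissues.

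Between wild-type brain and wild-type ovary, subunit RNAs were higher in brain in a joint fit, with one complex as an exception. The libraries of the tissues were made from different RNA inputs, so tissue and preparation cannot be told apart. As a share of all counts, members held 0.802% and 0.808% in wild-type brain and 0.819% to 0.936% in wild-type ovary. The size of the difference, and for some genes its direction, therefore depends on how the tissues are scaled together. Scaled within each tissue, ATPsynbeta had a mean of 743 CPM in wild-type brain and 1057 CPM in wild-type ovary. COX6B went the other way, at 147 and 91.6 CPM. Of 72 members tested in the joint fit, edgeR called 57 higher in brain and 2 lower, where 46.8% of all genes were called higher and 42.8% lower, 89.5% together. The 57 include paralogue-type members, some of them inside or overlapping another gene, and the levels of those are uncertain. The subunit median was 0.75, beside 0.10 for all genes. Under another scaling (RLE) both shifted up, to 0.93 and 0.28, so values are read against the median of all genes. The complex II subunits (median 1.03, from 0.82 to 1.16) and complex I subunits (median 0.97, 29 of 33 higher) stood highest, followed by complex IV (0.60, 7 of 8) and complex III (0.51, 6 of 8). Complex V had a median of 0.10, with 4 of 11 called higher: ATPsynG (0.63 ± 0.11), ATPsyndelta (0.42 ± 0.06), ATPsynO (0.32 ± 0.08) and ATPsynbeta (0.13 ± 0.06). Whether the complexes differ from one another was not tested.

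Single genes spread widely within a complex. In complex I, ND-MWFE (1.56 ± 0.13), ND-B17.2 (1.52 ± 0.08), ND-49 (1.44 ± 0.06) and ND-B14.7 (1.35 ± 0.09) were the most brain-biased by value, and ND-ACP was the only subunit called lower in brain (-0.34 ± 0.07, edgeR adjusted p = 0.000398). ND-ACP also serves mitochondrial fatty acid synthesis. In complex II the order by value was SdhB (1.16 ± 0.08), SdhD (1.08 ± 0.07), SdhC (0.98 ± 0.10) and SdhA (0.82 ± 0.09). In complex IV, COX6B led (1.32 ± 0.09), before COX5A (0.85 ± 0.09), COX7B (0.81 ± 0.09) and COX8 (0.63 ± 0.10), and COX5B was not called (0.14 ± 0.09). In complex III the largest were UQCR-6.4 (0.85 ± 0.14), UQCR-C2 (0.75 ± 0.09), UQCR-14 (0.65 ± 0.12) and UQCR-C1 (0.61 ± 0.08), and UQCR-11 was not called (0.09 ± 0.07). The assembly factor Sdhaf3 was the second member called lower in brain (-0.47 ± 0.18).

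**Figure D4:**
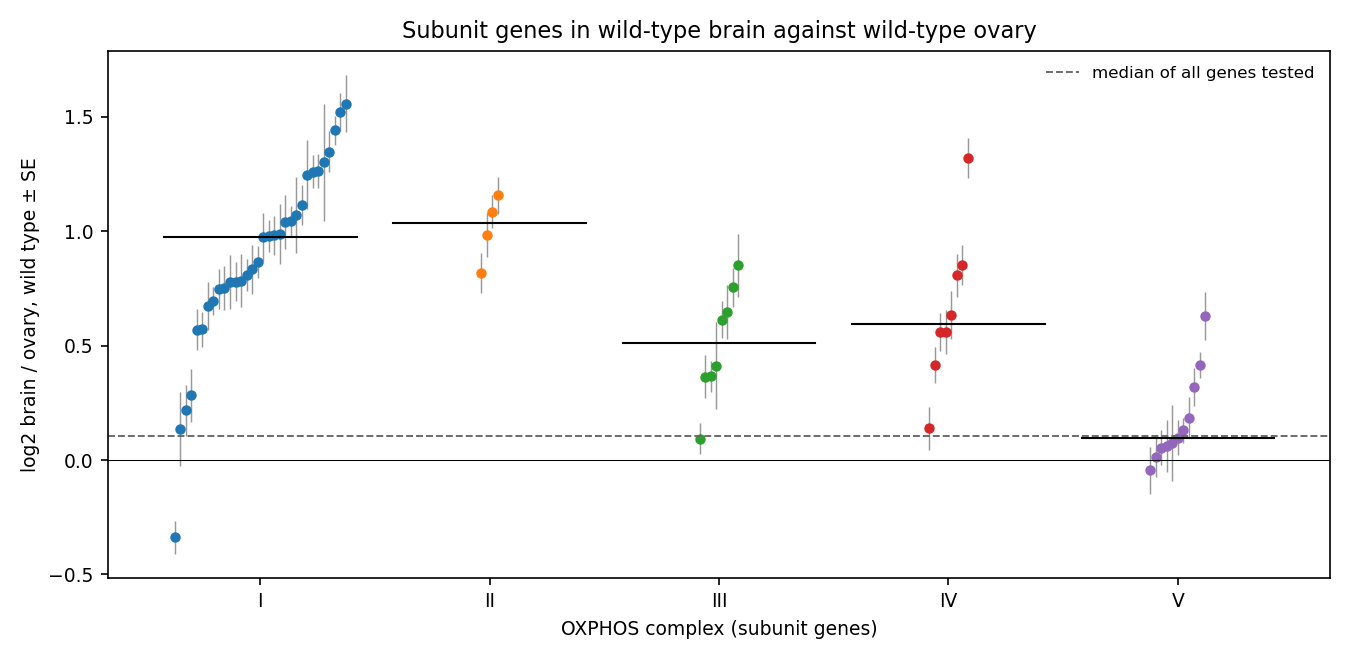
Log2 ratio of wild-type brain to wild-type ovary (y axis, ± SE) for each tested subunit gene, grouped by complex (x axis), with a black line at the median of the complex and a dashed line at the median of all genes tested, 0.10. ND-MNLL (6.74 ± 4.35, near 0 counts in ovary) is beyond the axis. Complex V sits at the dashed line (median 0.10) and complexes I to IV above it (medians 0.97, 1.03, 0.51 and 0.60).

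Per kb of exon, ATPsynC held the highest level in both tissues. In wild-type brain ATPsynC was highest at 570 CPM per kb, then COX5A and ATPsynbeta, both at 311 CPM per kb. In wild-type ovary ATPsynC had 855, ATPsynbeta 443, ATPsynB 409.6, ATPsynF 318 and COX5A 269 CPM per kb, so that 4 ATP synthase genes came first. Complex I subunits were the lowest group, with medians of 60.3 CPM per kb in brain and 52.2 CPM per kb in ovary, and within it ND-51 (192 and 146 CPM per kb) and ND-75 (137 and 124 CPM per kb) were highest. In complex II, SdhA led with 127 and 112 CPM per kb, and SdhC was lowest with 55.9 and 44.1. Of the subunit genes, ND-B8 and ND-MNLL were near 0. ND-MNLL shares exon sequence with CG45089 on the same strand, and ND-B8 with Gs1l on the other strand. Their reads could have been counted elsewhere, so these levels are uncertain. ND-B8 had 0 CPM in all 9 ovary libraries and 0.0232 to 0.102 CPM in brain, and ND-MNLL had 0 to 1.09 CPM in ovary and 0 to 2.13 CPM in brain.

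The paralogue-type members were at or near 0 in most groups. Of 24, 10 had no count in any S2 library, 4 none in any brain library and 10 none in any ovary library. The 10 in S2 cells are those without a transcript in the table. In brain 6 paralogues had a mean above 1 CPM, and in the other systems 1 apiece. Markers of testis, where such duplicates are mainly expressed, summed to 8.58 to 10.7 CPM in S2 cells, 16.0 to 19.4 CPM in brain and 167 to 197 CPM in ovary, with 6 of the 13 markers at 0 in every ovary group, 4 to 5 in the brain groups and 6 to 7 in the S2 groups. Most of the ovary sum was twe (162 to 193 CPM), and most of the brain sum twe (9.03 to 11.9 CPM) and fzo (4.32 to 5.69 CPM).

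In brain the highest paralogue was ND-51L1 at 15.1 CPM over the 6 libraries, 4.86% of its parent ND-51. It was followed by SdhAL (4.03 CPM), ATPsynCF6L (3.09 CPM), ND-51L2 (2.88 CPM), UQCR-11L (2.86 CPM) and COX5BL (1.99 CPM). The first 5 of these genes lie inside a longer gene on the same strand (Smurf, CG44837, Con, Trpm and Acsl), and COX5BL shares exon sequence with Trmt6 on the other strand, so reads of the host could have been counted there, and these levels are uncertain. The hosts CG44837 and Con measured 188 and 306 CPM in brain and 0.0159 and 0.635 CPM in ovary, where SdhAL and ATPsynCF6L had 0 counts in all 9 libraries. The hosts Smurf, Trpm and Acsl measured 219.7, 236 and 425 CPM in brain and 232, 149.95 and 327 CPM in ovary, where ND-51L1, ND-51L2 and UQCR-11L were at 1.84, 0.540 and 0.497 CPM. The part of the hosts in these levels was not tested. In S2 cells, ATPsynepsilonL was the one paralogue above 1 CPM (5.58 CPM, 19.2% of its parent sun). Its change after auxin was 0.27 at 24 h and 0.61 at 48 h on the log2 scale, not called. In ovary ND-51L1 (1.84 CPM, 0.979% of ND-51) was highest. No paralogue was called in a mutant comparison in either tissue, with 8 of 24 tested in brain and 3 in ovary.

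**Figure D5:**
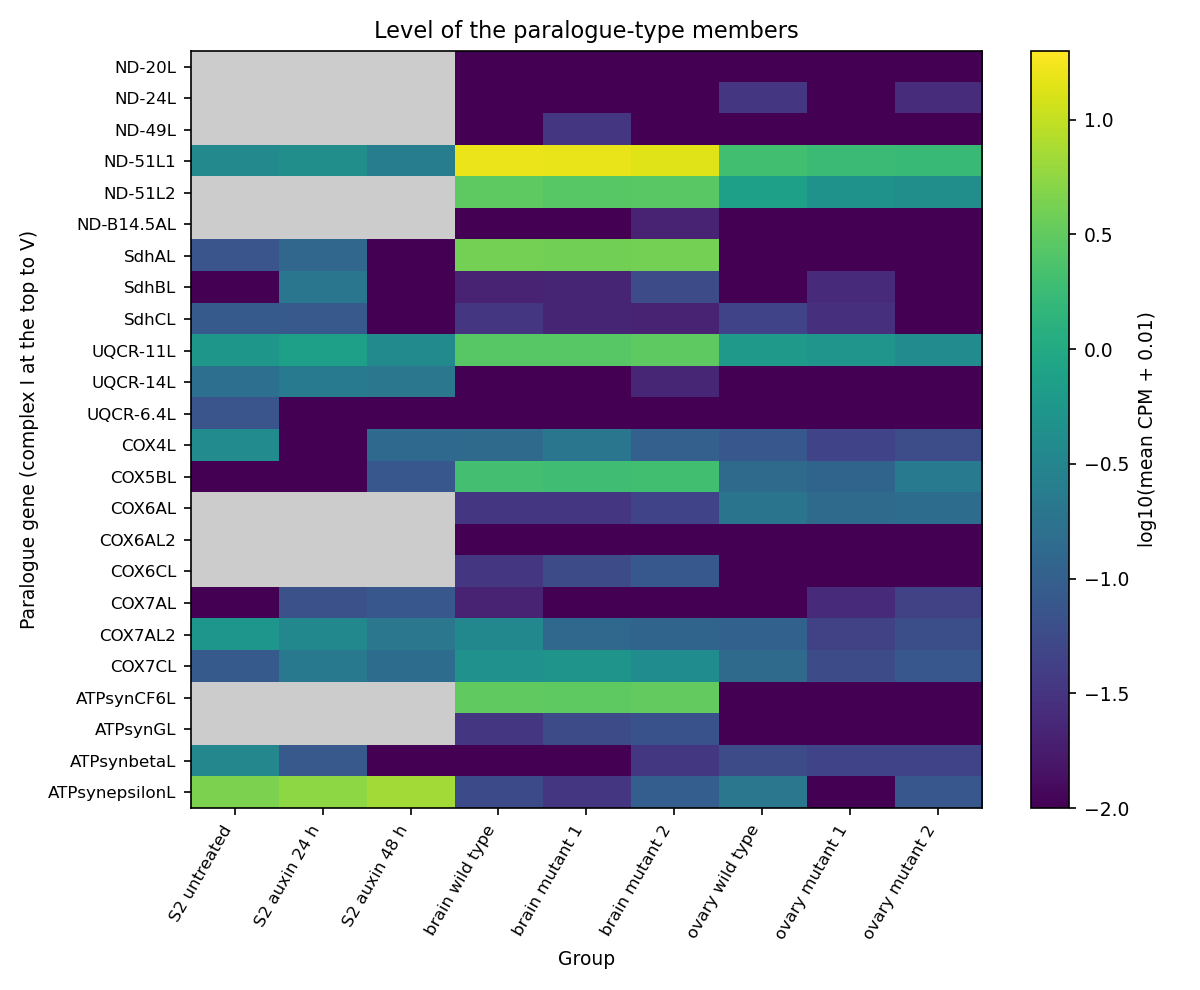
Mean level of the 24 paralogue-type members (rows, complex I at the top to complex V) in the 9 groups (columns), as log10(mean CPM + 0.01) on the colour scale, with grey where the S2 table has no transcript. CPM is scaled within each system. ND-51L1 in brain (15.1 CPM) and ATPsynepsilonL in S2 cells (5.58 CPM) are the highest of each system, and most other cells are near 0.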

How the data were processed

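RNA was measured in 21 libraries of 9 groups. For S2 cells the authors deposited raw counts by transcript, as whole numbers, from libraries that read the 3' end (75 bp). For the tissues they deposited estimated counts by gene (9.73% of the brain and 7.31% of the ovary values were fractional), from strand-keeping libraries after removal of ribosomal RNA. The submitters' processing notes name dm3 and, for the tissues, Trim Galore 0.6.2 and Salmon 1.2.1. The sources used here do not name the S2 aligner or counter or say if strand entered the counting, and 38 members share exon sequence with another gene on either strand, so their values are uncertain. Members and gene lists were chosen with earlier results of these data known. Identifiers were matched to current symbols and to the Ensembl annotation of BDGP6, which gave chromosome arms and exon lengths. Of 26009 S2 transcripts, 25653 matched. The other 356 held 0.361% to 0.418% of counts. Of the 142 list genes, 139 matched. No value column lacked a sample.

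An S2 gene was its isoform with the highest total, and estimated counts were rounded. Tests used edgeR 4.0.16 under R 4.3.3 (TMM, low-count filter, robust quasi-likelihood F test), with 7152 genes tested in S2 cells, 9880 in brain, 8312 in ovary and 10029 in the joint tissue fit. The SE is the absolute log2 change divided by the square root of F. Counts at an unadjusted p under 0.05 are given without the share of all genes at that cut, so they are not read as a response. Named members were all called ones, up to 3 per complex with the largest change, all paralogues and the extremes in level. Some further members were named after their values were seen, to show the range within a complex. Alternatives were RLE scaling, no filter, DESeq2 1.42.0, a replicate block, summed isoforms, leaving out each library and, chosen after seeing the data, leaving out 3 ovary libraries. Same-numbered S2 libraries correlated in their deviations at 0.621 to 0.749, so the numbers pair them. In brain (-0.0353 to 0.388) and ovary (-0.294 to 0.224) the correlations were lower and of mixed sign. Some brain genes still differed by replicate number in the same direction in every group, so variation shared by number is not excluded there. The test was tried on simulated data. Promoter motifs and sequences were not analysed here.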

Additional observations from a re-analysis of the deposited data

Results flagged for a closer look

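By the test of the difference itself, the mean effect of both mutants in brain minus that in ovary, edgeR called 2 members, each higher. Of all genes 2.62% were called higher and 3.67% lower, so the share of members called higher was near the background. Cyt-c1 gave 0.36 ± 0.08 (adjusted p = 0.0196), with a fall of 0.36 and 0.34 in ovary and values of 0.00 and 0.07 in brain. ATPsyngamma gave 0.34 ± 0.09 (adjusted p = 0.0455), with a fall of 0.38 and 0.34 in ovary and values of -0.05 and 0.05 in brain. In the same libraries that the test used, all 6 mutant ovary libraries were below all 3 wild-type ones for each gene, and the brain groups overlapped. No group has 4 or more libraries, so none was examined for a single library far from the others. The Cyt-c1 call was lost in 2 of 18 alternatives (without either wild-type brain library) and the ATPsyngamma call in 12 of 18, with adjusted p up to 0.124 and 0.208.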

How the results depend on the processing

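No call reversed under any alternative. With all libraries in, the ovary counts of called members were 17 and 17 (RLE and no filter), 23 (DESeq2) and 22 (replicate block) in mutant 1, and 19, 15, 23 and 21 in mutant 2. Leaving out 1 library gave 7 to 24 in mutant 1 and 2 to 24 in mutant 2. Without the 3 libraries that lay apart, mutant 2 gave 8 and mutant 1 gave 21. In brain mutant 2, DESeq2 called 1 and single omissions gave 0 to 11. For brain minus ovary, RLE gave 8, no filter 1, DESeq2 18 and single omissions 0 to 7. The causes were not tested. The block changed no count of S2 or brain members from 0, and whether the numbers pair brain or ovary libraries is not settled. S2 counts were 0 under every alternative, and wild-type brain against ovary gave 55 to 66. Paralogues with few or no counts allow no comparison.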
